A study of Mus musculus with 30 samples.

Results

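MCA-948 is a primary tumor cell line from the library of fibrosarcomas raised in mice with the carcinogen 3-methylcholanthrene (MCA). All 8 tumors whose titles name this line, out of 30 in the series, were compared with the 22 tumors of MCA-943 (n = 4), MCA-969 (n = 8), MCA-970 (n = 6) and MCA-972 (n = 4). Each of these 4 lines received equal weight, and the reference is the mean of the 4 line levels on the log2 scale. Fold changes and calls are thus against a geometric mean, which a line near 0 pulls down. They can exceed ratios of mean CPM: Ndn was 54.8-fold higher, with means of 28.18 CPM in MCA-948 and 1.055 CPM over the 4 other line means. Each line is a single isolate of a single tumor, and differences between lines are differences between 5 isolates. All tumors grew in mice of the C57BL/6 background. The strain label reads Ncr1Cre R26DTA for MCA-948, MCA-969, MCA-970 and MCA-972, and Ncr1Cre for MCA-943; Ncr1Cre drives recombination in cells that express NKp46, and R26DTA encodes a diphtheria toxin fragment that kills them. Whether this label describes the mouse that gave the line or the host of the tumor is not stated in the sources used here. All tumors of a line carry the same label, whatever their title letter. The study induced tumors in mice of both genotypes. It transplanted the derived lines into C57BL/6 mice, with or without an antibody that depletes NK1.1+ cells. MCA-948, MCA-970 and MCA-972 are the lines that the study calls sensitive to NK1.1+ cells. The labels also mark W-1D and W-2D of MCA-969 as sensitive, unlike the other 6 tumors of that line, and both belong to block 2 of the library numbers described next. The series names wild-type and NK cell deficient hosts, but not which title letter (W or a) stands for which; MCA-948 has 4 tumors of each letter. Hematopoietic cells were removed with CD45 beads before bulk RNA sequencing.

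The totals of the 8 MCA-948 libraries were 29765480 to 46537062 counts, against 27745104 to 45111926 in the other 22. The 10 highest genes took 5.31% to 6.87% of the counts in MCA-948 and 5.41% to 10.35% elsewhere. The libraries of MCA-948 resembled each other, with correlations of log2 CPM of 0.97 to 0.99 over 28 pairs, and none was a repeat of another. Library numbers fall in 3 blocks, and MCA-948 has 2 tumors in block 2 (with MCA-970 and 2 MCA-969 tumors) and 6 in block 3 (with MCA-943). Only these blocks allow a comparison within a block. Between its tumors of block 2 and of block 3, 280 of 15495 genes (1.81%) were called within MCA-948. Both block 2 tumors carry title letter a, so block and letter are partly confounded, and block 2 rests on 2 tumors. Nothing in the sources states that tumors came from separate cultures, so p-values measure the spread between these tumors. Because RNA was bulk, fewer cells of a type and less RNA per cell cannot be told apart.

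Fibrosarcomas are malignant tumors of fibroblast-like cells, which make collagen, proteoglycans and other proteins of the extracellular matrix. Nucleated cells also display peptides on MHC class I molecules, whose heavy chain, beta-2-microglobulin and peptide transporters rise together under interferon. Natural killer cells read MHC class I through inhibitory receptors, and so its level on tumor cells bears on how these lymphocytes respond. The receptor tyrosine kinase Met binds hepatocyte growth factor and is known for amplification and overexpression in several tumor types. Trp53 encodes p53, the tumor suppressor that is often lost in carcinogen-induced sarcomas.

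Genes lower in MCA-948 far outnumbered those that were higher. A gene was called when edgeR's adjusted p was under 0.05 and the log2 fold change at least 1 in size. Of 16862 tested genes, 2784 (16.5%) were lower and 821 (4.87%) higher than the mean of the 4 other lines. Against each of the 4 lines in turn, 958 genes (5.68%) were lower and 127 (0.753%) higher. All 8 MCA-948 tumors lay below all 22 others in 810 genes (4.80%) and above them in 517 (3.07%). The same contrast for MCA-943 gave 1976 lower and 2011 higher genes, and the other 3 lines each had more higher than lower genes, with 903 to 1016 lower and 1653 to 1933 higher. The difference between lines in this balance was not tested.

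**Figure D1:**
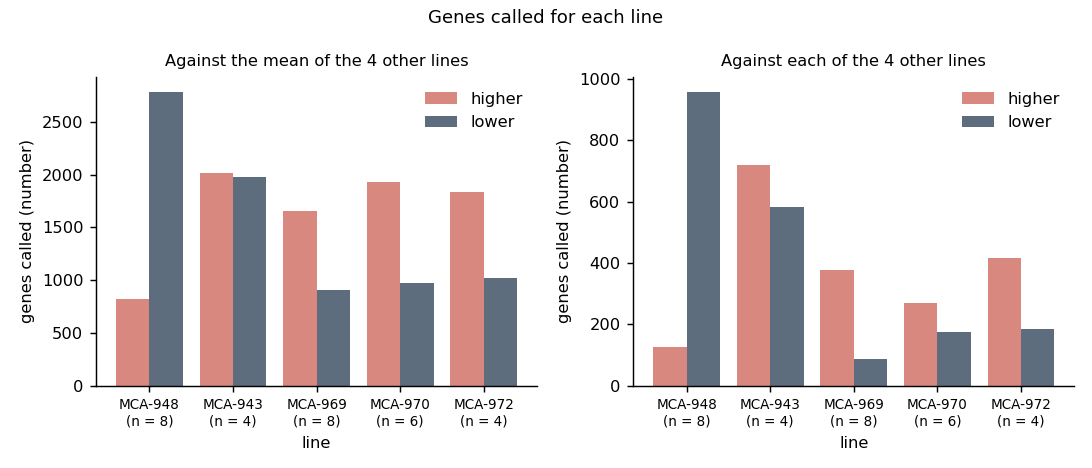
Number of genes called higher (light bars) and lower (dark bars) in each line (x axis, with its number of tumors), against the mean of the 4 other lines (left) and against each of them (right). MCA-948 has 2784 lower and 821 higher genes on the left, and 958 lower and 127 higher on the right.

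The excess lay in large differences. With no fold threshold, 5944 genes were lower and 5658 higher in MCA-948, nearly equal numbers, and the median log2 fold change of all tested genes was -0.01. Scaling between libraries centers most genes near 0, and medians ran from -0.0126 to 0.0440 over the lines. The balance without a threshold is therefore partly set by the scaling. At a log2 fold change of at least 2, the counts were 1292 lower and 160 higher. In 217 genes the mean of MCA-948 was at least 4-fold below the lowest other line mean, against 105 such genes for MCA-943, 26 for MCA-972 and 9 each for MCA-969 and MCA-970. In 27 genes it was at least 4-fold above the highest other line mean, against 46 to 234 for the other lines. Most lower genes were lower than several lines: 958 of them than all 4, 1159 than 3, 577 than 2 and 90 than 1.

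Genes of low and middle level carried most of these calls. The lower genes had a median of 3.71 CPM in the other lines and 0.55 CPM in MCA-948. In 303 of them (10.9%, against 2.56% of all tested genes) each of the 8 MCA-948 libraries held at most 3 counts. The share called lower was 27.3% of genes at 1 to 10 CPM in the other lines, 21.2% under 1 CPM, 10.2% at 10 to 100 CPM and 10.5% from 100 CPM. Fewer genes reached 1 CPM in MCA-948: 11866 to 12319 per tumor (median 12058), against 12405 to 12946 (median 12754.5) in the other 22, with no overlap. In block 3 the mean was 12029 ± 137 genes (SD, n = 6) in MCA-948 and 12519 ± 95.1 (n = 4) in MCA-943, and the two-sided exact permutation p was 0.00952, the smallest this design allows. The difference reached -565.2 genes at 10 CPM, whereas at 0.1 CPM it was -6.83 (exact p = 0.971). It turned to 158.2 more genes in MCA-948 when genes with more than 3 counts were counted (exact p = 0.733), and to 196.2 more after thinning to equal totals (exact p = 0.219). Totals overlapped between the groups, TMM factors were 0.992 to 1.071 in MCA-948, and with scaling by library size alone 2644 genes were lower and 938 higher. The neighboring group of higher genes described next took at most 3.89% of the counts. What gave rise to the many lower genes was not tested.

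**Figure D2:**
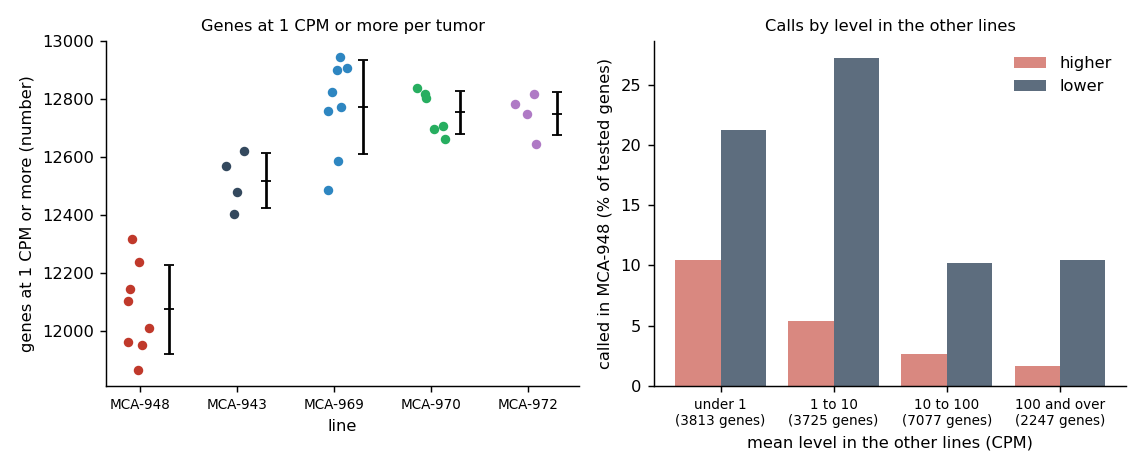
Left, number of genes at 1 CPM or more in each tumor (points) by line, with the mean and SD beside them; the axis does not start at 0, and the 8 MCA-948 tumors (11866 to 12319) lie below all others. Right, share of tested genes called higher or lower in MCA-948 by their mean level in the other lines, with 27.3% lower at 1 to 10 CPM.

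A block of neighboring genes on chromosome 6 gave the highest transcript levels that set MCA-948 apart. In the deposited table's build, GRCm38, 16 neighboring tested genes between chr6:16833373-17943025, a stretch of 1.11 Mb, were all higher than each of the 4 lines. Of these, 7 are protein-coding: Tfec, Tes, Cav2, Cav1, Met, Capza2 and St7. Their log2 fold changes ran from 3.42 to 6.70 with a median of 4.69 over the 16. The summed level of the stretch was 22430 to 38900 CPM in MCA-948 (median 29720) and 863 to 2513 CPM in the other tumors, without overlap. It took 2.24% to 3.89% of all counts in MCA-948 and 0.0863% to 0.251% elsewhere. No other run of genes higher than each line held more than 2 neighbors.

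Met (ENSMUSG00000009376, chr6:17463800-17573980, plus strand) was at 2961 CPM in the lowest MCA-948 tumor, 4426 at the median and 4876 in the highest. The other 22 tumors ran from 73.1 CPM through a median of 117 to 1626, so the groups did not overlap. The highest of them was MCA-969 tumor W-1D, where the rest of the stretch stood at the level of its line, with Cav1 at 459.8 and Tes at 123.1 CPM. Met was 28.2-fold higher in MCA-948 (log2 fold change 4.82 ± 0.34, SE; edgeR adjusted p = 4.56e-13), and log2 fold changes were 3.38 within block 2, which holds that MCA-969 tumor, and 5.68 within block 3.

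Cav1 and Cav2, which encode the caveolins that shape flask-like pits of the plasma membrane, rose with it. Cav1 (chr6:17306335-17341452) was at 8616 to 15660 CPM in MCA-948 (median 12150) and 327 to 1326 CPM in the others (median 555). No tumor of another line came near this range, and the fold was 19.2 (log2 fold change 4.27 ± 0.11, adjusted p = 8.65e-23). Cav2 was at 796 to 1949 CPM against 30.4 to 80.3, or 27.1-fold higher. Tes, a LIM-domain protein of focal adhesions, stood at 4060 to 6635 CPM against 68.8 to 332.9, 31.4-fold higher. Capza2, a subunit of the protein that caps actin filaments, stood at 4591 to 9830 CPM against 177 to 353, 28.2-fold higher. St7 was 16.6-fold higher, with 317 to 603 CPM against 19.1 to 36.4.

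Tfec, a transcription factor at the left end, had low counts, at 0.744 to 3.50 CPM in MCA-948 and 0 to 1.22 CPM elsewhere, and was the single member of the 16 whose groups overlapped. The 9 other members are non-coding or unclassified genes. Of these, 5 lie inside St7 and 2 are annotated antisense and overlap Tes or the caveolin genes, and since the counting strand is not stated, their reads cannot be told apart from those of the larger genes. On the right the next tested gene, Wnt2, a secreted ligand, starts 0.0459 Mb after the last member. Its log2 fold change was -0.20 ± 0.34 (adjusted p = 0.61), at 0.181 to 0.845 CPM in MCA-948 and 0 to 2.46 CPM elsewhere. At so low a level, Wnt2 does not show where the stretch ends. On the left the next tested gene lies 1.02 Mb away, and Mdfic beyond it had a log2 fold change of -0.60. DNA copy number was not measured in these data, so its part was not tested.

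**Figure D3:**
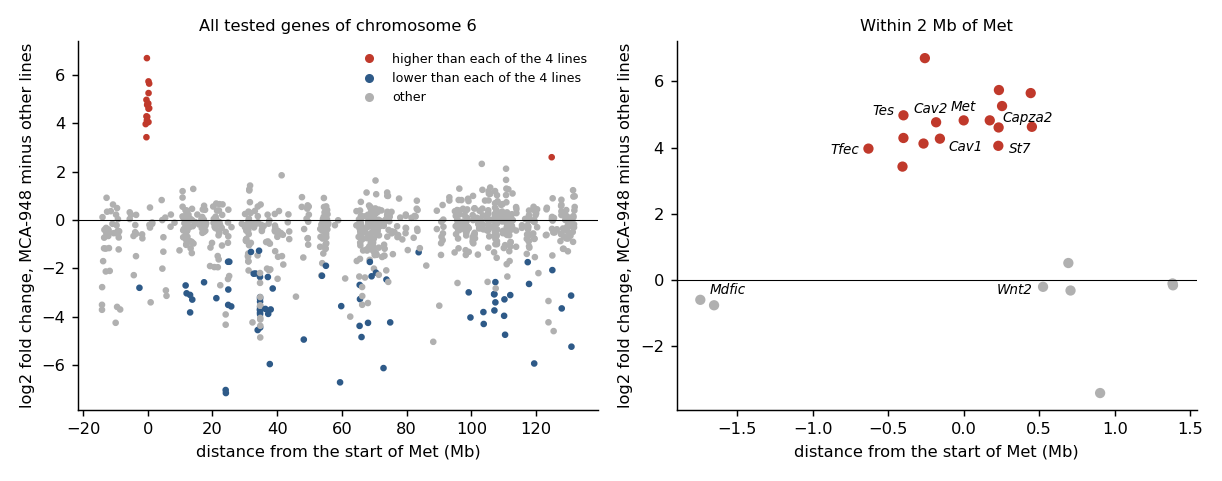
Log2 fold change of MCA-948 minus the mean of the 4 other lines (y axis) against the distance from the start of Met (x axis, Mb) for all tested genes of chromosome 6 (left) and those within 2 Mb (right, protein-coding members and flanking genes named). The 16 members lie between 3.42 and 6.70, and Wnt2 on their right lies at -0.20.

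For each gene the smallest of its 4 differences from a line was taken. Of the 12 protein-coding genes where this smallest difference was largest upward, 6 lie in this stretch and 6 elsewhere. Mtus2, a microtubule-associated scaffold, was at 9.86 to 14.2 CPM in MCA-948 and 0 to 0.179 CPM in the other tumors. Tbx20, a T-box transcription factor of heart development, was at 31.1 to 53.2 CPM against 0 to 1.69 CPM, and was listed at 0 in all 4 MCA-943 tumors. Neither gene overlapped between groups (log2 fold changes 7.88 and 8.71). Ndn, an imprinted growth suppressor, reached 16.6 to 38.9 CPM against 0 to 4.40 CPM, 54.8-fold higher. Ttn, the giant spring protein of the sarcomere, varied most within MCA-948, at 6.39 to 64.4 CPM against 0.246 to 4.74 CPM. Pip5k1b, a phosphoinositide kinase, was 19.2-fold higher and Gm21887, a predicted gene of chromosome X, 20.1-fold higher. Neither overlapped with the other tumors.

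Some members of the gene lists were higher too. Bmp3, a ligand of the bone morphogenetic protein family, was at 22.9 to 42.2 CPM against 0.155 to 8.41 CPM, and its fold was 35.4. Foxf2, a forkhead factor of mesenchyme, was 13.4-fold higher (7.31 to 13.7 against 0 to 3.04 CPM). Phex, an endopeptidase of phosphate balance in bone, was 5.02-fold higher (29.2 to 45.1 against 3.80 to 12.7 CPM). Grhl2, a factor of epithelial identity, did not overlap either, but its level was low, at 0.281 to 0.611 CPM against 0 to 0.237 CPM. Suz12, a core subunit of the Polycomb repressive complex that methylates histone H3, was higher than the mean of the lines by a log2 fold change of 1.10 ± 0.05, at 167 to 236.5 CPM against 67.5 to 132 CPM, without overlap. It did not reach the fold threshold against each line. Suz12 lost the call with the block as a covariate (log2 fold change 0.96), without MCA-943 (0.97) and within block 2 (0.72).

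Trp53 was low in MCA-948, more so than in any other line. The gene (ENSMUSG00000059552, chr11:69580359-69591873) was at 0.71 CPM in the lowest MCA-948 tumor, 1.36 at the median and 4.32 in the highest. The other tumors ran from 21.1 through 109 to 179 CPM, the 6 of MCA-970 being the lowest at 21.1 to 29.6 CPM. Groups did not overlap, and Trp53 was 36.3-fold lower in MCA-948 (log2 fold change -5.18 ± 0.26, adjusted p = 4.96e-16). In block 2 the log2 fold change was -4.58 and in block 3 it was -5.76.

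The share of p53 pathway genes called lower was near that of all genes. In the list of 28 genes of the p53, Ink4 and Rb pathways, 4 were lower (14.3%, against 16.5% of all tested genes), 0 were higher, and the median log2 fold change was -0.09. The 4 were Trp53 itself and 3 known p53 targets. Phlda3, an inhibitor of Akt, was at 4.54 to 6.68 CPM against 10.6 to 66.6 CPM, and Trp53inp1, a stress protein, at 3.77 to 7.27 against 7.35 to 32.2 CPM. Both were lower than each line without overlap, although the log2 fold change of Trp53inp1 was -0.91 within block 2 and no longer called. Sesn1, a sestrin, was lower at the threshold (log2 fold change -1.01) and lost the call under several alternatives. Cdkn1a, the cyclin-dependent kinase inhibitor p21, had a log2 fold change of -0.95 and overlapped between groups, and Mdm2, the ubiquitin ligase of p53, had one of 0.34; neither was called.

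The MHC class I pathway was lower in MCA-948. Of the 15 tested members of this list, 9 were lower (60%, against 16.5% of all tested genes), 7 of them than each line, and 0 were higher; the median log2 fold change was -2.04, against -0.01 over all genes. Nlrc5 (ENSMUSG00000074151, chr8:94434356-94527272), the transactivator that drives class I genes, was at 0.203 to 0.973 CPM in MCA-948 (median 0.433). The others ran from 7.62 to 97.7 CPM (median 24.7), lowest in MCA-972 and highest in MCA-943. The groups did not overlap, and Nlrc5 was 54.9-fold lower (log2 fold change -5.78 ± 0.22, adjusted p = 9.64e-19).

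The classical heavy chains followed. H2-K1 (ENSMUSG00000061232, chr17:33996017-34000347) was at 13.9 to 33.1 CPM in MCA-948, with a median of 21.5. Line means of the others were 84.3 ± 26.7 CPM in MCA-972 (n = 4), 327.7 ± 41.1 in MCA-969 (n = 8), 1022 ± 250.4 in MCA-970 (n = 6) and 2091 ± 372.2 in MCA-943 (n = 4). No tumor of another line was as low, and H2-K1 was 22.4-fold lower in MCA-948. H2-D1 was at 61.0 to 80.9 CPM against 94.7 to 2914 CPM, 9.97-fold lower and without overlap. For both heavy chains MCA-972 was the nearest line, with log2 fold changes of -1.94 and -1.07 from it. Reads of classical and Qa-type class I genes can share sequence, so these levels carry that uncertainty.

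B2m, the light chain, fell less. It was at 286.3 to 368.4 CPM against 458.5 to 3847 CPM, 4.10-fold lower without overlap, and missed the fold threshold against MCA-972. The peptide transporter subunits Tap1 and Tap2 and the immunoproteasome subunits Psmb8 and Psmb9 are 4 neighboring genes at chr17:34181987-34216321, all lower than each line. Psmb8 was at 0.329 to 1.55 CPM against 5.52 to 223.3 CPM, 30.3-fold lower, and Tap1 at 0.406 to 2.52 against 7.78 to 249.4 CPM, 26.8-fold lower. Neither overlapped. Psmb9 was 26.5-fold and Tap2 12.6-fold lower, the latter with overlap. Tapbp, the chaperone of peptide loading, was lower by a log2 fold change of -1.36, which became -0.84 without MCA-943. The remaining members, Psmb10, H2-T23, Calr, Erap1, Pdia3 and Canx, were not called. They include general chaperones of the endoplasmic reticulum.

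Interferon-stimulated genes were lower as a set. Of 36 tested members, 34 were lower (94.4%, against 16.5% of all genes), 24 of them than each line, and 0 were higher. The median log2 fold change was -2.76. The members not called were Ddx58, a sensor of viral RNA, and Ifit2, with log2 fold changes of -0.55 and -0.50. MCA-943 had the highest levels of many of these genes, but without this line in the reference 32 of the 36 were still lower, with a median of -2.14. Within block 2, where only MCA-969 and MCA-970 are compared, 28 of 36 were lower, against 1789 of the 16202 genes tested there.

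Isg15, the ubiquitin-like interferon-induced modifier, was at 0.778 to 4.99 CPM in MCA-948 with a median of 2.67. Its line means were 9.62 ± 4.46 CPM in MCA-969 (n = 8), 21.2 ± 3.19 in MCA-972 (n = 4), 25.4 ± 6.46 in MCA-970 (n = 6) and 83.6 ± 36.1 in MCA-943 (n = 4). MCA-969 tumors overlapped with MCA-948, while the other lines lay wholly above it. Isg15 was 9.49-fold lower in MCA-948. Ifit1, which binds foreign RNA, was 9.96-fold lower (0.744 to 11.6 against 4.77 to 139 CPM). Usp18, the protease that removes Isg15, was 19.8-fold lower and did not overlap. Oas1a, Oas2 and Oas3, the synthases of 2'-5' oligoadenylates, are part of a run of 6 neighboring genes at chr5:120730333-120907521 that were all lower than each line. Their log2 fold changes were -4.21, -4.82 and -3.54, on levels under 0.5 CPM in all MCA-948 tumors, and Oas3 was no longer called within block 2 (log2 fold change -1.30). Iigp1, an interferon-inducible GTPase, was 39.0-fold lower (0.169 to 2.13 against 2.48 to 488.6 CPM).

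Factors that carry the interferon signal were lower as well. Stat2, a transcription factor that interferon receptors activate, was lower by a log2 fold change of -1.87, and Irf9, its partner, by -1.60. Irf9 did not overlap (7.68 to 14.5 against 18.9 to 87.6 CPM), and Stat2 was no longer called within block 2 (log2 fold change -0.81). Irf7, which amplifies the response, was 8.55-fold lower, but MCA-948 at 0.913 to 5.77 CPM overlapped with the others at 2.38 to 243.3 CPM. Members of the Ifit, Oas and Gbp families resemble their neighbors, and counts of single members are uncertain.

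Promoters of 5 of these genes are shown as examples that hold a match, since members of both lists moved together. Each is the 250 bases before the gene's start from RefSeq (GRCm38.p6), written 5' to 3' on the gene's strand. Capitals mark matches, on either strand, to GAAA repeated after any 2 bases, a core of the interferon-stimulated response element bound by Stat2 with Irf9, or to TTCNNNGAA, the gamma-activated site. Of 27025 promoter windows of this length, 3.05% held the former and 7.14% the latter. The response element was in 13 of 26 promoters found for the interferon list (50%) and in 2 of 13 for the MHC class I list (15.4%). A promoter was found for 72.2% of the 36 interferon genes and 86.7% of the 15 MHC class I genes, so members are missing. The interferon list was drawn up as genes that interferon stimulates, so its share does not describe MCA-948. Tap1, Psmb9, H2-K1, H2-D1, Irf7 and Irf9 held neither motif in this window. Adjoining or overlapping matches of the response element run together, as in Isg15 with 3 matches.
Isg15 (chr4:156200819-156201068, minus strand): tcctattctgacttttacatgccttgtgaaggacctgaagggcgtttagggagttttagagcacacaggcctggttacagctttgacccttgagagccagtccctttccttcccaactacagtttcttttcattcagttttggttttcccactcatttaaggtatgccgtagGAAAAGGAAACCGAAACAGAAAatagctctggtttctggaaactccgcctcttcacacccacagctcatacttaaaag
Ifit1 (chr19:34640639-34640888, plus strand): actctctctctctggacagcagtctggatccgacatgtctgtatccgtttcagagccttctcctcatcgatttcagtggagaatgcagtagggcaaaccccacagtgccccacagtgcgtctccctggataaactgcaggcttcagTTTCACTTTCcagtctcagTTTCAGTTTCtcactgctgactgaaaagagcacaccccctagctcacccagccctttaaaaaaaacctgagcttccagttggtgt
Oas1a (chr5:120907526-120907775, minus strand): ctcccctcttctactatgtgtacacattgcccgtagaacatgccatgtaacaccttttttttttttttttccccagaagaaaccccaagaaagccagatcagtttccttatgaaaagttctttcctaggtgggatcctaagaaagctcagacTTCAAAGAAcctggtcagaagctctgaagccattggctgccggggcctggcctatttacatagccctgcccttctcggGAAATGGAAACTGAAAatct
B2m (chr2:122147437-122147686, plus strand): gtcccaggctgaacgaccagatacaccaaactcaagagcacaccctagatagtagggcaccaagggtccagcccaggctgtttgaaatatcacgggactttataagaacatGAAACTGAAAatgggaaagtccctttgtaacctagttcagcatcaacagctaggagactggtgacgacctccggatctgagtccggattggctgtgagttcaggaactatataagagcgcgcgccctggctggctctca
Psmb8 (chr17:34197945-34198194, plus strand): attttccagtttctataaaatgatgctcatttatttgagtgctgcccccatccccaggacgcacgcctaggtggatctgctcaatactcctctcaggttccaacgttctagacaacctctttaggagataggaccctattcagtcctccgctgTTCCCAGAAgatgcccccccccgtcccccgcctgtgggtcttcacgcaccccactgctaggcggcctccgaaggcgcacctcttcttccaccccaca
A match describes letters only. Isg15, Ifit1, Oas1a and B2m held the response element, and Oas1a and Psmb8 the gamma-activated site. Nlrc5 is named only.

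Chemokines and complement lay lower too. Of 26 tested chemokines, 13 were lower (7 than each line) and 5 higher, with a median log2 fold change of -0.99, where 16.5% and 4.87% of all tested genes were lower and higher. Within block 2, 6 of 27 were lower, where 1789 of all 16202 tested genes were. Cxcl9 and Cxcl10, which attract T cells and NK cells through Cxcr3, were lower by log2 fold changes of -4.99 and -2.19, and both overlapped between groups. Cxcl12, the ligand of Cxcr4, was at 3.30 to 38.1 CPM in MCA-948 against 53.2 to 1012 CPM, 16.4-fold lower without overlap. Cx3cl1, the membrane-bound ligand of Cx3cr1, was at 3.27 to 6.96 CPM against 15.5 to 174 CPM, 13.7-fold lower. Ccl28, a mucosal chemokine, was the member higher than each line (5.35-fold). Of 13 complement genes, 10 were lower (5 than each line), and 5 of 13 within block 2. The proteases C1ra and C1s1, which start the classical pathway, were both 8.4-fold lower (8.42 and 8.41) without overlap, at 3.88 to 6.58 and 6.70 to 13.9 CPM in MCA-948.

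Some leukocyte RNA remained after the CD45 beads, and its markers are set beside these lists. The summed level of 16 markers of T and NK cells was 1.31 to 11.8 CPM in MCA-948 (median 2.44) and 2.91 to 62.3 CPM in the others (median 7.23). In MCA-948, 2 of 12 tested markers were lower (16.7%, near the 16.5% of all tested genes), Ccl5 and Cd8a. The call of Cd8a was lost under several alternatives (log2 fold change -0.95 without MCA-943). Cd8a, Cd2, Gzma, Prf1, Nkg7 and Ncr1 were listed at 0 in at least 1 tumor. The markers of macrophages and myeloid cells summed to 41.1 to 208 CPM (median 121) against 27.6 to 487.7 CPM (median 52.98), with Lyz2 called higher of 14 tested, a call lost under several alternatives. Their part in the result was not tested. Of 15 tested ligands of NK cell receptors, 7 were lower (46.7%, against 16.5% of all tested genes) and 1 higher (6.67%, against 4.87%). The list has 20 members and is covered only in part. Raet1a, Raet1b, Raet1c and H60a were not found by name among the counted genes, and H60c did not pass the filter. Nectin3, a ligand of Tigit, was at 14.7 to 21.4 CPM against 32.0 to 89.9 CPM without overlap (3.49-fold lower), while Lgals9, a ligand of Tim-3, and Tnfsf10, the death ligand TRAIL, were 5.36-fold and 5.60-fold lower with overlap.

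**Figure D4:**
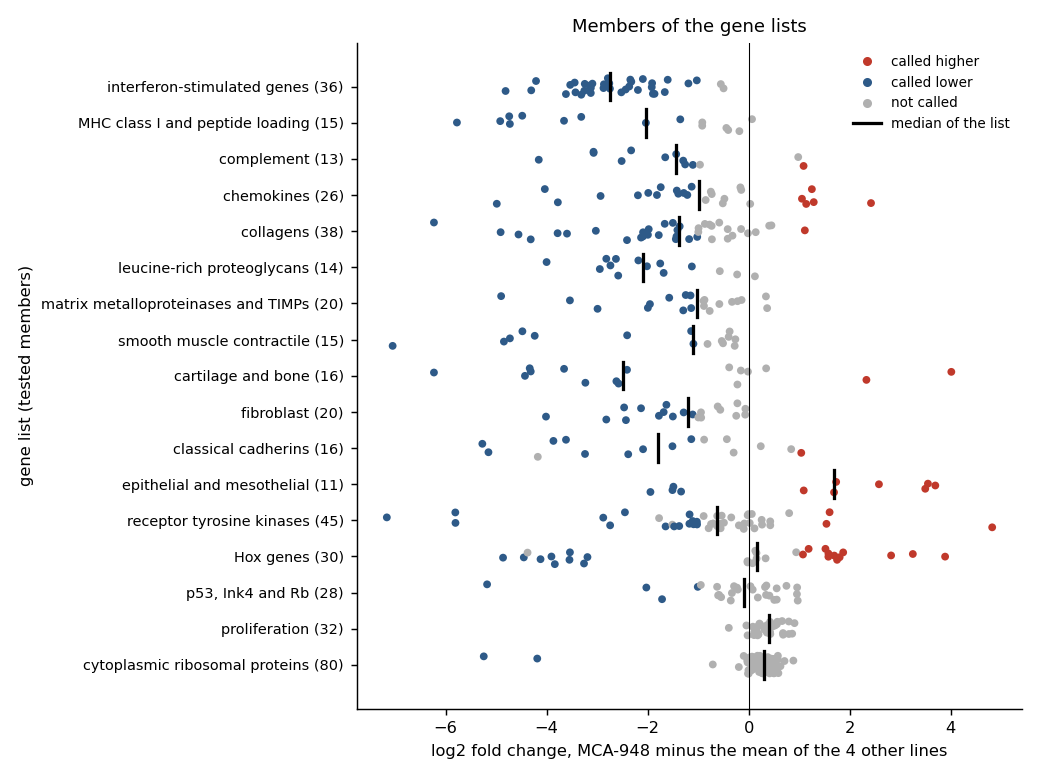
Log2 fold change of MCA-948 minus the mean of the 4 other lines (x axis) for each tested member (points, colored by call) of 17 gene lists (y axis, number of tested members in parentheses), with the list median as a black bar. The median is -2.76 for interferon-stimulated genes, -2.04 for the MHC class I pathway, 0.39 for proliferation genes and 1.69 for epithelial and mesothelial markers.

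The extracellular matrix program of fibroblasts was reduced but present. The summed level of 20 fibroblast markers was 16390 to 24080 CPM in MCA-948 and 19730 to 94890 CPM elsewhere. Of these 20, 11 were lower (55%, against 16.5% of all tested genes) and 0 higher. Within block 2, 7 of 20 were lower, where 1789 of all 16202 tested genes were. Fn1, the adhesive glycoprotein fibronectin, showed the largest difference in CPM among lower genes. It was at 2467 to 4606 CPM in MCA-948 (median 3647) and 7762 to 20030 CPM in the others (median 12550), without overlap, and 3.43-fold lower. Thy1, a surface glycoprotein of fibroblasts, was at 12.7 to 56.9 CPM in MCA-948 against 294.8 to 937.6 CPM, 16.2-fold lower (log2 fold change -4.02 ± 0.21, adjusted p = 6.49e-16). No tumor of another line approached the level of MCA-948.

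Other abundant matrix genes were low in MCA-948 and in MCA-969 alike. Postn, the matricellular protein periostin, was at 476.5 to 1636 CPM in MCA-948 and 178.6 to 962.7 CPM in MCA-969, whereas MCA-943, MCA-970 and MCA-972 ran from 3463 to 22010 CPM. Col1a2, a chain of type I collagen, was at 558.6 to 2692 CPM in MCA-948 and 977.2 to 3068 CPM in MCA-969, against 6839 to 15060 CPM in the rest. Both were lower than the mean of the lines (log2 fold changes -2.43 and -2.13) but not than each line. Within block 2 the log2 fold change of Postn was -0.69 (adjusted p = 0.39) and that of Col1a2 was -1.02 (adjusted p = 0.0477). There 2 MCA-948 tumors stand against MCA-970 and 2 MCA-969 tumors, of which W-2D was the lowest of its line for both genes. An effect of the block therefore cannot be told apart from this choice of lines and tumors.

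Of 38 collagen genes, 22 were lower (57.9%, against 16.5% of all tested genes), 6 of them than each line, and 1 was higher (2.63%, against 4.87%). Col11a1, a fibril-forming collagen of cartilage and activated fibroblasts, was at 0.0253 to 4.19 CPM in MCA-948 and 1.08 to 516.7 CPM elsewhere, and was 75.2-fold lower. The groups overlapped through a single tumor, MCA-969 W-2D, which stood apart from its line in several matrix genes. Col6a4, a chain of beaded-filament collagen, was 23.6-fold lower. Small leucine-rich proteoglycans, which bind collagen fibrils and growth factors, had 11 of 14 members lower and 0 higher, with a median log2 fold change of -2.10. Within block 2, 3 of 14 were lower, where 1789 of all 16202 tested genes were. Decorin (Dcn) and biglycan (Bgn), the abundant members, had log2 fold changes of -1.68 and -1.13, which were -0.33 and -0.38 within block 2 and no longer called. Optc, Ecm2, Podn and Aspn were lower than each line, by log2 fold changes of -2.74, -2.63, -2.58 and -2.19, and Podn and Aspn lost the call within block 2.

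Matrix proteases were lower in part, where 16.5% of all tested genes were lower and 4.87% higher. Of 20 metalloproteinases and their inhibitors, 10 were lower and 0 higher. Mmp23, a membrane-bound metalloproteinase, was at 0.575 to 1.604 CPM against 9.46 to 78.9 CPM, 29.9-fold lower, and Mmp3, stromelysin, was at 14.3 to 78.5 against 138.8 to 1538 CPM, 11.6-fold lower. Neither overlapped. Timp3, which inhibits them, was 7.97-fold lower. The list named classical cadherins holds all genes named Cdh with a number, not classical members alone. Of 16 tested, 9 were lower, 1 of them than each line, and 1 higher, with a median log2 fold change of -1.80. Cdh11, the cadherin of mesenchymal cells, was at 1.95 to 17.6 CPM in MCA-948 against 106.5 to 653.5 CPM, 35.6-fold lower without overlap. Of 31 integrins and laminins, 9 were lower, 3 higher and 19 not called, with a median of -0.42. Lama2, a laminin chain of the basement membrane of muscle, was 11.5-fold lower (2.47 to 12.4 against 24.9 to 119 CPM).

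Contractile genes of smooth muscle and myofibroblasts fell in part. Of 15 tested members, 8 were lower (53.3%, against 16.5% of all tested genes), 5 than each line, and 0 higher. Within block 2, 4 of 15 were lower, where 1789 of all 16202 tested genes were. With the block as a covariate 5 of 15 were lower, where 2235 of all 16862 were. Acta2, smooth muscle actin, was at 5.89 to 31.1 CPM in MCA-948 and 32.9 to 781.5 CPM in the others, 18.9-fold lower with no overlap. Cnn1, calponin, was at 0.0338 to 0.131 CPM against 0.983 to 173 CPM, Tagln, transgelin, was 26.5-fold lower and Myl9, a myosin light chain, 22.3-fold lower. Mylk, Smtn, Des, Cald1 and Tpm1 were among the 7 not called.

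**Figure D5:**
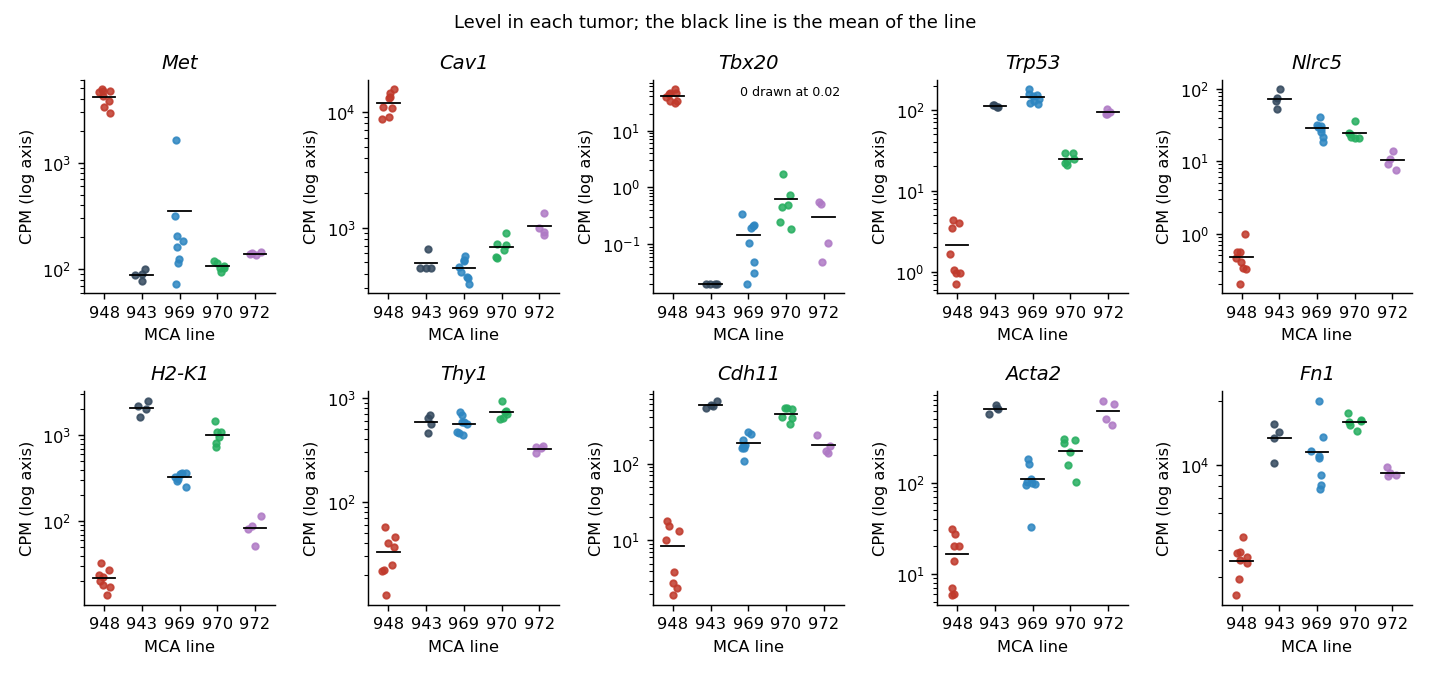
Level of 10 genes in each tumor (points; y axis, CPM on a log axis) by MCA line (x axis), with the line mean as a black bar; values of 0 are drawn at 0.02. MCA-948 (red) lies above all other tumors for Met, Cav1 and Tbx20 and below them for the other 7 genes.

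Genes of bone and cartilage moved in both directions. Of 16 tested members, 9 were lower (56.25%, against 16.5% of all tested genes), 5 of them than each line. In the other direction 2 were higher (12.5%, against 4.87%), and the median log2 fold change was -2.49. Within block 3, against MCA-943 alone, 3 of 10 were lower and 2 higher, and the median turned to 0.29. In that block 2758 of all 15220 tested genes were lower and 1742 higher. Spp1, the phosphoprotein osteopontin, was at 183 to 427.0 CPM in MCA-948 against 1380 to 6530 CPM, 9.41-fold lower without overlap. Mgp, an inhibitor of calcification, was at 0.306 to 2.63 CPM against 30.6 to 300.6 CPM, 61.5-fold lower and also without overlap. The higher members were Phex, given above, and Acan, the cartilage proteoglycan aggrecan, whose log2 fold change of 4.01 came from MCA-943, listed at 0, and from MCA-969 and MCA-970, at means of 1.25 and 2.57 CPM. MCA-972 (mean 125.9 CPM) stood above MCA-948 (mean 17.7 CPM).

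The remaining genes whose smallest difference was largest downward belong to other functions. Slc4a3, an anion exchanger, was at 0.0676 to 0.478 CPM in MCA-948 against 3.93 to 22.5 CPM, 50.8-fold lower. Boc, a co-receptor of Hedgehog ligands, was at 0.0521 to 0.850 CPM against 4.51 to 60.1 CPM, 46.7-fold lower. Speg and Obsl1, relatives of the sarcomere proteins titin and obscurin, lie near Slc4a3 on chromosome 1 and were 50.9-fold and 48.6-fold lower. None of these 4 genes overlapped between groups. Thsd4, a protein of microfibrils, and Srpx2, a sushi-repeat protein, were 45.5-fold and 30.9-fold lower without overlap. Zfp618, a zinc finger protein, was 74.1-fold lower, and its groups overlapped through MCA-969 W-2D at 0.588 CPM.

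Ligands and receptors of developmental pathways were lower in part, where 16.5% of all tested genes were lower and 4.87% higher. Fgfr2, a receptor for fibroblast growth factors, was at 0 to 0.266 CPM against 1.25 to 13.6 CPM, and Ephb6, an ephrin receptor without kinase activity, at 0 to 0.0982 CPM against 2.29 to 9.60 CPM. Neither overlapped. Of 45 receptor tyrosine kinases, 15 were lower, 5 than each line, and 3 higher, of which only Met was higher than each line. Mst1r, the receptor Ron, a close relative of Met, was 5.47-fold lower. Dusp6, a phosphatase induced by ERK signaling, was 2.66-fold lower without overlap (41.6 to 64.6 against 95.8 to 279.0 CPM). Of 40 Wnt pathway genes 17 were lower and 3 higher. Wnt5a and the antagonists Dkk2, Dkk3 and Frzb were each lower than every line and did not overlap (log2 fold changes -1.84, -2.33, -2.13 and -3.67). Of 43 genes of TGF-beta, activin and BMP signaling 16 were lower and 2 higher. Ltbp2 and Ltbp3, latent TGF-beta binding proteins of the matrix, were 9.67-fold and 4.45-fold lower.

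Hox clusters, which encode body position, differed in opposite directions, where 16.5% of all tested genes were lower and 4.87% higher. In the Hoxa cluster 9 of 10 tested genes were lower in MCA-948 and 0 higher (median log2 fold change -3.87). Hoxa3 and Hoxa4 were lower than each line: Hoxa3 was at 0 to 0.399 CPM against 1.29 to 6.12 CPM and Hoxa4 at 0 to 0.164 CPM against 0.61 to 2.81 CPM, both without overlap. Hoxa9 and Hoxa10 were as low in MCA-943 and MCA-972 (means of at most 0.0724 CPM) as in MCA-948, and stood at 13.2 to 28.7 CPM on average in MCA-969 and MCA-970. In the Hoxb cluster 7 of 8 genes were higher than the mean of the lines and 0 lower, yet none was higher than each line. Hoxb7 was at 12.7 to 18.9 CPM in MCA-948, with means of 16.7 CPM in MCA-969 and 12.6 CPM in MCA-970, and of 0.204 and 0.179 CPM in MCA-943 and MCA-972. Within block 2 all 7 had log2 fold changes below 0. Hoxc10 was highest in MCA-948, at 64.4 to 120 CPM, with MCA-970 next at 59.7 to 69.3 CPM, overlapping it.

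Lower genes, which made up 16.5% of all tested genes, clustered near Hoxa on chromosome 6. In the 5 Mb bin that begins at 50000001, 25 of 45 tested genes were lower, 16 of them than each line, and 0 higher, with a median log2 fold change of -2.22. A second bin that begins at 40000001 had 11 of 21 lower and a median of -1.73, with Ephb6, Arhgef5, Fam131b and Epha1 lower than each line. The median of the first was -1.15, -2.37, -2.44 and -1.13 against MCA-943, MCA-969, MCA-970 and MCA-972. Among genes lower than each line, runs of neighbors were short: 631 stood alone, 101 runs held 2 genes, and the 2 longest held 6, the Oas genes and Hoxa2 to Hoxa4 with antisense genes.

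Imprinted genes, expressed from a single parental copy, also formed neighboring sets. Dlk1, Meg3, Rian and Mirg lie at chr12:109452823-109749460, and all 4 were lower than the mean of the lines. Dlk1, a Notch-like ligand of the paternal copy, was at 1.95 to 8.87 CPM in MCA-948 against 33.7 to 1575 CPM, 63.2-fold lower without overlap. The non-coding Meg3 was at 0.699 to 5.47 CPM, near the mean of MCA-972 (1.16 CPM) and below those of the other lines (50.7 to 333.7 CPM). Ndn, Peg12 and Mkrn3, paternally expressed genes at chr7:62346569-62464510, were all higher than the mean. Peg12 and Mkrn3 were close to MCA-943, with log2 fold changes from it of 0.37 and 0.59 within block 3. Igf2r, the receptor that clears Igf2, was 2.45-fold lower without overlap (181.6 to 329.5 against 406.5 to 864.1 CPM).

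Proliferation genes were not called in any of 32 tests, with a median log2 fold change of 0.39. Their summed level was nevertheless higher, at 3922 to 4928 CPM in MCA-948 (median 4695) and 2353 to 4351 CPM in the others (median 3271). Of all tested genes, 16.5% were lower and 4.87% higher. Cholesterol synthesis (22 tested) and the mitochondrially encoded proteins (11 tested) had 0 calls as well, and of 80 ribosomal proteins 2 were lower, Rps4l and Rpl39l. Keratin 18 (Krt18), an intermediate filament of simple epithelia, was at 65.5 to 138 CPM in MCA-948, below or at the edge of MCA-969 (135 to 556.7 CPM) and above the other lines (0.443 to 10.2 CPM). Ahr, the receptor that binds MCA itself, was 3.69-fold higher in MCA-948 (14.4 to 29.7 against 2.53 to 15.1 CPM), with a small overlap. Of 7 tested genes of its pathway, 3 were lower, 1 was higher (Ahr itself) and 3 were not called, with a median log2 fold change of -0.08. Among the lower, Cyp1b1, which oxidizes such compounds, was at 0.0917 to 1.81 CPM against 0.279 to 16.9 CPM, and Ahrr, the repressor of the receptor, at 0.152 to 0.393 against 0.279 to 2.49 CPM. Both were lower than each line with overlap, and lost the call within block 2. The Y-linked Ddx3y was present in MCA-948 (66.2 to 97.2 CPM) and Xist, the RNA of the inactive X chromosome, was at most 0.245 CPM, as in MCA-969 and MCA-970.

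Tumors of letter W and of letter a within MCA-948 differed in 8 of 14638 genes. All 4 W tumors lie in block 3, whereas 2 of the 4 a tumors lie in block 2, so letter and block are partly confounded. Of these, 7 were lower in W, namely Cdh11, Cxcl12, Postn, Dpt, Fhl1, Mfap4 and Plcb1, and Atp6v0d2 was higher. Cdh11 was at 1.95 to 3.85 CPM in the 4 W tumors and 10.01 to 17.6 CPM in the 4 a tumors, and Cxcl12 at 3.30 to 10.3 against 33.3 to 38.1 CPM. Each group was far below the lowest tumor of any other line for Cdh11 (106.5 CPM). Trp53 was at 0.71 to 1.65 CPM in W and 0.965 to 4.32 CPM in a, overlapping.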

How the data were processed

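The authors aligned reads with STAR 2.5.3a to GRCm38 and counted them per gene with featureCounts, version 1.5.2 in the submitters' processing notes, which also list Picard. Column names mark the reads as deduplicated by UMI, and strand settings are not given in the sources used here. The deposited values are raw counts for 48440 genes, and all 30 sample columns were used. Names and positions came from GENCODE M21. The members and the 44 gene lists were chosen with earlier results of these data known.

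Counts were scaled by TMM and filtered by filterByExpr with edgeR 4.0.16 (R 4.3.3), which left 16862 genes, and a robust quasi-likelihood model with line as factor was fitted to all 30 tumors. MCA-948 was tested against the mean of the 4 other lines and against each, with Benjamini-Hochberg adjustment under 0.05 and a log2 fold change of 1 or more in either direction. DESeq2 1.42.0 and limma 3.58.1 (voom), other scalings, filters, thresholds, blocks and reference lines, and leaving out each tumor were alternatives. Named genes were the 12 higher and 12 lower protein-coding genes whose smallest pairwise difference was largest (at least 5 CPM), the 6 with the largest CPM difference and up to 6 members of a list. Genes of letters, runs and bins, and further list members, were chosen after their values were seen. Blocks are runs of library numbers in the labels. In simulated counts with 200 genes shifted by 2 on the log2 scale, the test against the mean recovered 200 with 4 others called, and that against each line 194 with 0 others, over 16378 genes. There the 4 other lines shared the same mean for every gene, and only genes with a mean above 1 CPM were shifted. These figures therefore do not cover reference lines that differ from each other, or genes of lower level. Tumors with the same title code did not deviate together (median correlation 0.09 over 15 pairs with MCA-948, against -0.01 over 161 other pairs). RefSeq promoters were found for 69.4% of tested genes, so a check of base composition over the lower genes is void. Some genes are not reported here.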

Additional observations from a re-analysis of the deposited data

Results flagged for a closer look

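In groups of 4 to 8 tumors, the highest or lowest tumor was tested for a gap to the rest of its line (Dixon's test on log2 CPM), in 267 tests, of which chance alone would pick about 1 in 20; 14 were picked, 2 of 155 in MCA-948. In MCA-948, W-1D was the highest of 8 for H2-D1 (80.89 CPM, the others 61.0 to 69.6 CPM) and for Mx1 (1.148 CPM, the others 0.122 to 0.327 CPM). In MCA-969, W-1D was the highest for Met (1626 CPM, the others 73.1 to 314.7 CPM), and W-2D the lowest for Zfp618 (0.5881 CPM), Col11a1 (1.083 CPM), Postn (178.6 CPM), Col1a2 (977.2 CPM) and Ndn (0 CPM). In MCA-943, a-1G was the highest for Cav1 (647.8 CPM) and Srpx2 (37.87 CPM), and W-2G for Mtus2 (0.1356 CPM, the others 0). In MCA-970, W-2D was the highest for Nlrc5 (35.47 CPM) and Iigp1 (59.35 CPM), and W-R the lowest for Gm21887 (0.03055 CPM).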

How the results depend on the processing

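Higher and lower counts against the mean of the lines (821 and 2784) and against each line (127 and 958) stayed within 1.5 times under DESeq2, limma-voom, the other scalings (library size only 938 and 2644), an adjusted p under 0.01, the letters, and other weights or omissions of lines. Leaving out 1 tumor gave 764 to 923, 2705 to 2898, 111 to 142 and 914 to 1036. With no filter on low counts 1761 genes were higher than the mean, and with a mean of at least 1 CPM 440, with 63 higher than each line. With no fold threshold the counts were 5658, 5944, 1673 and 2082, and at a log2 fold change of 2 they were 160, 1292, 39 and 358. With the library-number block as a covariate 69 genes were higher and 559 lower than each line. Within block 2 the counts were 469 and 1789, and within block 3, against MCA-943 alone, 1742 were higher. Of the 2784 lower genes, 2530 of 2570 tested kept their direction within block 2 and 1992 of 2126 within block 3.

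With the title code as a replicate block the counts were 766, 2671, 97 and 861, although the codes did not pair the tumors. The 280 genes between blocks within MCA-948 became 2153 with no fold threshold, and at most 374 when a tumor was left out. Leaving out a-2G or a-R leaves a single tumor in block 2, so counts from those fits are not given. The difference in detected genes was -489.4 at 1 CPM, -6.83 at 0.1 CPM, and reversed to 158.2 at more than 3 counts and 196.2 after thinning to equal totals. Of the values of single genes 3124 kept direction and call, 75 lost and 5 gained the call, and 5, all of Wnt2, moved. Those that reversed were Hoxb genes: within block 2 Hoxb2 was -0.75, Hoxb3 -1.33, Hoxb4 -0.35, Hoxb5 -0.88, Hoxb6 -0.41, Hoxb7 -0.10 and Hoxb8 -1.12, and Hoxb3 was -0.30 without MCA-943. No list median changed sign with the scaling, while that of all tested genes moved from -0.01 to 0.05 with library size only. The cause of these shifts was not tested.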

Other observations

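Markers of other cell types were called in part, where 16.5% of all tested genes were lower and 4.87% higher. Of 12 endothelial markers, Eng, a TGF-beta co-receptor, was the single one called, lower, and their sum was 33.9 to 560.9 CPM against 106 to 773.3 CPM. Eng lost the call with the block as a covariate (log2 fold change -1.15) and within block 2 (-0.55). Pericyte markers had 0 of 7 called (120.8 to 221.8 against 39.8 to 227.8 CPM). Keratinocyte markers summed to 5.63 to 7.34 CPM and those of mature skeletal muscle to 4.04 to 6.42 CPM in MCA-948, with 1 lower in each. Adipocyte and Schwann cell markers had 3 of 4 and 4 of 7 tested lower, and 1 Schwann cell marker, Mbp, was higher.

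Counts of further lists stand beside 16.5% lower and 4.87% higher over all tested genes. Protocadherins had 24 of 53 lower and 5 higher, and ADAMTS proteases 6 of 16 lower and 0 higher. Epithelial and mesothelial markers had 7 of 11 higher and 4 lower, with a median log2 fold change of 1.69. Only 1 was higher than each line, and their sum was 77.5 to 165 CPM in MCA-948 against 2.89 to 1264 CPM elsewhere. Ras and ERK output genes had 7 of 23 lower, the IGF axis 5 of 15 lower and 2 higher, imprinted genes 12 of 27 lower and 5 higher, and positional transcription factors 13 of 39 lower and 3 higher. The remaining lists had 1 or 2 calls in a direction: NRF2 targets had 1 of 15 lower, glycolysis and hypoxia genes 2 of 24 higher and 1 lower, DNA methylation and Polycomb enzymes 2 of 25 higher and 2 lower, the myogenic program 1 of 5 in each direction, and germline genes 1 of 3 lower.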
